A study of Mus musculus with 8 samples.

Results

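The 9 genes described here are the regulators and enzymes of forebrain GABA interneurons, namely the homeobox genes *Dlx1*, *Dlx2*, *Dlx5*, *Dlx6* and *Lhx6*, the zinc finger genes *Sp8* and *Sp9*, and the glutamate decarboxylase genes *Gad1* and *Gad2*. They were taken by name from the 49585 genes of the count table aligned to the B genome, and all 9 had enough counts to be tested. RNA-seq had been performed on whole brains of 8 newborn female mice of the B × C cross, whose mothers were C57BL/6J (B) and whose fathers were CAST/EiJ (C). The dams drank water with 0 ppm or 50 ppm Cd, given as CdCl2, for 5 weeks before mating and until the litter was born. Brains were collected within 24 h of birth, and the 4 pups of each dose came from different litters. The pups were exposed through the dam, and the brain was homogenized whole, so that fewer cells of a type and less RNA per cell cannot be told apart in any value below.

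GABA is the main inhibitory transmitter of the brain. In the embryo, most cortical interneurons arise in the ganglionic eminences of the ventral forebrain and migrate from there into the cortex, while others supply the striatum and the olfactory bulb. The *Dlx* genes encode homeodomain transcription factors that the eminences need to make these neurons, and they sit in pairs that are transcribed toward each other. *Sp8* and *Sp9* encode zinc finger factors of the same lineage, prominent in the lateral and caudal eminences, and *Lhx6* marks interneurons of the medial eminence. *Gad1* and *Gad2* make GABA from glutamate in GABA neurons everywhere in the brain, not in the forebrain alone.

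The members lie on 3 chromosomes of GRCm38, the build of the counts. Chromosome 2 holds *Gad2* (chr2:22622205-22693874, + strand), *Lhx6* (chr2:36081953-36105408, − strand), *Gad1* (chr2:70553072-70602014, + strand), *Dlx1* (chr2:71528113-71533981, + strand), *Dlx2* (chr2:71543408-71546754, − strand) and *Sp9* (chr2:73271925-73284706, + strand). *Dlx6* (chr6:6863334-6868568, + strand) and *Dlx5* (chr6:6877805-6882085, − strand) form the pair on chromosome 6, and *Sp8* is at chr12:118846329-118852576 on the + strand. The genes of a *Dlx* pair are 9.427 kb (*Dlx1* and *Dlx2*) and 9.237 kb (*Dlx6* and *Dlx5*) apart, whereas *Sp9* starts 1725 kb beyond *Dlx2*.

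Because the *Dlx* genes are related, the stretch that defines the family, the 60 codons of the homeobox, is shown for all 4. Capitals mark bases that differ from *Dlx1*, and each stretch is split by an intron in the genome and read 5′ to 3′ on the coding strand (*Dlx1*, chr2:71531025-71532311; *Dlx2*, chr2:71544877-71545515; *Dlx5*, chr6:6878441-6879657; *Dlx6*, chr6:6865140-6867088; GENCODE M21 transcripts).
Dlx1: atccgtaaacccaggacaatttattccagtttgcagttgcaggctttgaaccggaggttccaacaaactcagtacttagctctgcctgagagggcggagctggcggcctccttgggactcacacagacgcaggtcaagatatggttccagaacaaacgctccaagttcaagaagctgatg
Dlx2: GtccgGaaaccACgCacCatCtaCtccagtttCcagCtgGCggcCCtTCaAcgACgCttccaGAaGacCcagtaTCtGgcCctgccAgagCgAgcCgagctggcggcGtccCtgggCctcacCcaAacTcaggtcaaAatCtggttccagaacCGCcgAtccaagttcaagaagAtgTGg
Dlx5: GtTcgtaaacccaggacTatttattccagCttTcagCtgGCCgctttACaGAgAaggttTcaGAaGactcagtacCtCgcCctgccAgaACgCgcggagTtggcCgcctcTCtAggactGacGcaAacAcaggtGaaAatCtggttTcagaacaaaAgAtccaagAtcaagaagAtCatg
Dlx6: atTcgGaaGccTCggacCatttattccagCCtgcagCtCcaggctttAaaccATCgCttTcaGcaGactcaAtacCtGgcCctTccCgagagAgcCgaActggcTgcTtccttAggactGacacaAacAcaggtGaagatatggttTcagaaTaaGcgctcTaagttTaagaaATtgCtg
Of the 180 bases, *Dlx2* differed from *Dlx1* at 47, *Dlx5* at 43 and *Dlx6* at 42, and the capitals are spread over the whole stretch. Among all 36 pairs of members, the longest run of identical bases in their transcripts was 44, shared by *Sp8* and *Sp9* inside the coding sequence of both, against reads of 115 bases after trimming. The 44 bases that *Sp8* and *Sp9* have in common are shown next.
*Sp8* and *Sp9*: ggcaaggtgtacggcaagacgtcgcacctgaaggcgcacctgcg
No pair of members thus shared a run as long as a read. Some exons overlap those of other genes. *Dlx1* shares 335 exon bases with *Dlx1as*, *Sp9* 270 with *Cir1* and *Dlx6* 104 with *Dlx6os2*, all on the opposite strand, and *Lhx6* shares 104 with *Gm27953* on its own strand. The libraries kept strand, but the strand setting of the count is not given in the sources used here, so these 4 counts are uncertain to that extent.

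In controls, the levels per length of exon, in CPM (the counts of a gene over the TMM-scaled counts of its library, in parts per 1000000) per kb, placed the enzymes first and *Sp8* last. *Gad1* had 30.2 ± 4.58 CPM per kb and *Gad2* 21.7 ± 3.52 (SD, n = 4, as for every ± value here). *Dlx1* was the highest regulator at 16.6 ± 0.674 CPM per kb. It was followed by *Lhx6* at 12.6 ± 0.503 and *Dlx2* at 11.3 ± 1.15, whose ranges of 1 SD overlap. *Sp9* at 6.18 ± 0.168, *Dlx5* at 5.71 ± 0.433, *Dlx6* at 4.97 ± 0.851 and *Sp8* at 4.02 ± 0.488 CPM per kb closed the order, with ranges of 1 SD that overlap between each of these neighbours. Exon length counts every annotated isoform, so these levels are approximate.

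The libraries held 22916434 to 30708087 counts on genes. Before the members are compared, 2 control libraries need mention. The mean log2 CPM over 9 hindbrain and spinal cord genes (among them *Hoxa2*, *Hoxb2* to *Hoxb5*, *Hoxc4*, *Hoxd3* and *Slc6a5*) was −3.38 and −2.11 in 0 ppm replicates 1 and 2, but 1.63 and 1.96 in 0 ppm replicates 3 and 4 and 1.81 to 3.36 in the exposed brains. All 9 of these genes were higher at 50 ppm at an unadjusted p under 0.05, with a median log2 fold change of 1.75, and their summed level ran from 0.341 to 58.4 CPM at 0 ppm and from 47.8 to 170 CPM at 50 ppm. The 3 others of that list, *Hoxa3*, *Hoxa4* and *Hoxd4*, are listed at 0 in every library. *Map2* and *Stmn2*, genes of all neurons, were found in every library, but they do not show which brain regions a library holds. 0 ppm replicates 1 and 2 thus held little of the hindbrain and spinal cord list, although both are labelled whole brain. They were not alike in other genes. Over 9 genes of GABA neurons in the midbrain, hindbrain and cerebellum, the summed level was 69.3 CPM in 0 ppm replicate 1 and 105 CPM in replicate 2. It was 114 and 129 CPM in 0 ppm replicates 3 and 4 and 107 to 136 CPM in exposed brains. Which regions 0 ppm replicates 1 and 2 hold was not tested. Fold changes and ratios of the members are therefore also given without these 2 libraries. This alternative was added after the values had been seen, and the permutation tests were not repeated in it. The hindbrain genes still differed in it, with 5 of 9 higher at an unadjusted p under 0.05 and a median of 0.76. The part of the hindbrain difference in the results was not tested. Most genes of this list are *Hox* genes. The study reports higher *Hox* expression as a result of the exposure, with some *Hox* genes undetectable in a number of controls. The mean over the list, used below as a score, may thus hold a part of the response to exposure. Using the score as a covariate, or leaving out these controls, may then also remove some of that response, which was not tested.

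**Figure D1:**
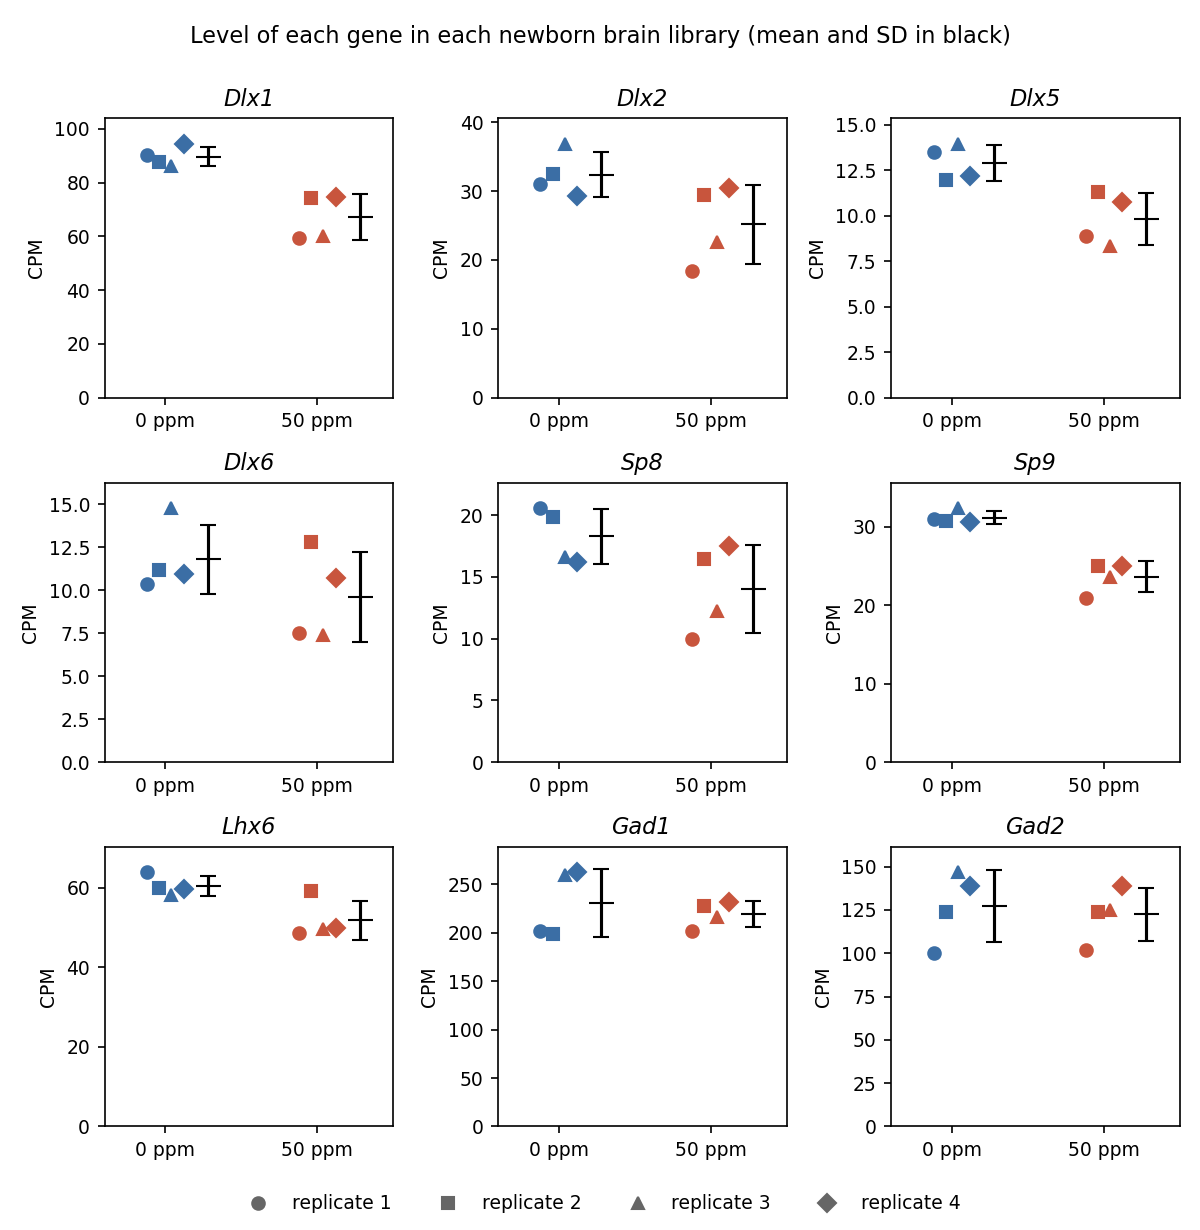
Level in CPM (vertical axis, from 0) of each of the 9 genes in the 4 libraries at 0 ppm (blue) and the 4 at 50 ppm (red), with the mean and SD in black. The exposed libraries lie below every control library for *Dlx1*, *Dlx5* and *Sp9*, and the groups overlap for the other genes.

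All 7 regulators had lower mean levels in exposed brains than in controls, while the means of the enzymes differed by less than their SD. The log2 fold changes (50 ppm against 0 ppm) of the regulators lay between −0.42 for *Dlx1* and −0.22 for *Lhx6*, those of *Gad1* and *Gad2* at −0.07 and −0.06. In edgeR's quasi-likelihood test, 6 of the 9 members, all of them regulators, were lower at an unadjusted p under 0.05, a direction and threshold that 1.44% of the 23113 genes tested met. The number was 4 without 50 ppm replicate 1, where *Dlx2* (−0.24) and *Sp8* (−0.25) no longer met it, and 7, with *Gad1* and *Gad2* among them but not *Sp8* or *Lhx6*, without 0 ppm replicates 1 and 2. None of the 9 passed after Benjamini-Hochberg adjustment over all genes, where 4 genes in all (0.0173%) passed. With DESeq2, 18 of 20871 genes with an adjusted p passed (0.0862%), and *Dlx1* (adjusted p = 0.0197) and *Sp9* (adjusted p = 0.0138) were among them. In 3 of the 9 members all exposed libraries lay below all control libraries, which held for 0.904% of all genes. The log2 fold change was negative in 9 of 9 members and in 51% of all genes. The median was −0.37 over the members and −0.39 over the regulators, against −0.0033 over all genes tested. Although neither passed in edgeR here, the study had already reported *Dlx1* and *Sp9* as lower in these same libraries (DESeq2, adjusted p under 0.05). The counts of members therefore include genes known to be lower, and they describe this set only.

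*Dlx1* acts in the maturation and survival of interneurons and was the most abundant regulator. Its libraries held 2642, 2360, 2638 and 2441 counts at 0 ppm (90.2, 87.8, 86.1 and 94.5 CPM) and 1693, 2116, 1685 and 1693 counts at 50 ppm (59.4, 74.3, 60.1 and 74.7 CPM). The groups did not overlap, and exposed replicates 1 and 3 were the lowest. The mean was 89.7 ± 3.64 CPM in controls and 67.1 ± 8.51 CPM in exposed brains, 25.1% lower. edgeR gave a log2 fold change of −0.42 (SE 0.08, 95% confidence interval −0.60 to −0.24, adjusted p = 0.232), with an unadjusted p under 0.05. Without 0 ppm replicates 1 and 2 it was −0.43, with an adjusted p of 0.223 by edgeR.

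*Dlx2*, its partner on the chromosome, is needed together with *Dlx1* for differentiation in the eminences. It had 31.03, 32.4, 36.9 and 29.2 CPM in controls and 18.4, 29.4, 22.6 and 30.4 CPM in exposed brains. Exposed replicates 2 and 4 reached the control range and replicates 1 and 3 did not, so the groups overlapped. The means were 32.4 ± 3.27 and 25.2 ± 5.72 CPM, with a log2 fold change of −0.37 (SE 0.13, edgeR adjusted p = 0.999). Without 0 ppm replicates 1 and 2 it was −0.40 (edgeR adjusted p = 0.919).

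*Dlx5* and *Dlx6* act downstream of the first pair as neurons differentiate, and were less abundant. *Dlx5* had 13.5, 11.98, 14.0 and 12.2 CPM in controls and 8.88, 11.3, 8.35 and 10.8 CPM in exposed brains, again without overlap. Its log2 fold change was −0.40 (SE 0.12, edgeR adjusted p = 0.996), and −0.42 without 0 ppm replicates 1 and 2 (edgeR adjusted p = 0.891). *Dlx6* had 10.3, 11.2, 14.8 and 10.9 CPM in controls and 7.51, 12.8, 7.39 and 10.7 CPM in exposed brains. Here exposed replicate 2 was above 3 of the controls, and the log2 fold change of −0.30 (SE 0.17, 95% confidence interval −0.66 to 0.06) did not reach an unadjusted p of 0.05. Without 0 ppm replicates 1 and 2, the *Dlx6* value became −0.43 (edgeR adjusted p = 0.998).

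Relative to its mean, *Sp9* had the smallest control SD of all members. Its control values were 30.96, 30.7, 32.4 and 30.6 CPM, from 907, 826, 993 and 790 counts, and the exposed brains had 20.9, 25.1, 23.6 and 25.1 CPM, from 595, 714, 662 and 568 counts. The groups were separate, with means of 31.2 ± 0.848 and 23.7 ± 1.97 CPM, a difference of 24.1%. The log2 fold change was −0.40 (SE 0.09, 95% confidence interval −0.58 to −0.22, edgeR adjusted p = 0.298), and −0.42 without 0 ppm replicates 1 and 2 (edgeR adjusted p = 0.405).

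*Sp8* showed a fold change of the same size with much more spread. It had 20.6, 19.8, 16.6 and 16.2 CPM in controls and 9.93, 16.5, 12.2 and 17.5 CPM in exposed brains. Its 2 highest values were those of 0 ppm replicates 1 and 2, the libraries low in the hindbrain and spinal cord list. The log2 fold change was −0.39 (SE 0.15, edgeR adjusted p = 0.999). It shrank to −0.23 without those libraries (edgeR adjusted p = 0.998) and to −0.16 with the hindbrain and spinal cord score as a covariate, and in neither was the unadjusted p under 0.05.

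*Lhx6*, which directs interneurons of the medial eminence toward their somatostatin and parvalbumin fates, had 63.9, 59.9, 58.3 and 59.7 CPM in controls. The exposed brains had 48.6, 59.2, 49.6 and 49.8 CPM. Of these, 3 lay below every control and replicate 2 lay within the control range. The log2 fold change was −0.22 (SE 0.08, edgeR adjusted p = 0.999), and −0.19 without 0 ppm replicates 1 and 2, where the unadjusted p was no longer under 0.05.

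The values of the enzymes depended on the controls used. *Gad1*, which makes most of the GABA of the brain, had 202, 199, 259 and 262 CPM in controls and 202, 228, 216 and 232 CPM in exposed brains. *Gad2*, whose product serves nerve terminals, had 99.9, 124, 147 and 139 CPM in controls and 102, 124, 125 and 139 CPM in exposed brains. With all 8 libraries the log2 fold changes were −0.07 (SE 0.09, 95% confidence interval −0.26 to 0.12) for *Gad1* and −0.06 (SE 0.11, 95% confidence interval −0.28 to 0.17) for *Gad2*. The 2 lowest *Gad1* controls were 0 ppm replicates 1 and 2. Against the other 2 controls alone, the value was −0.25 for *Gad1* (edgeR adjusted p = 0.646) and −0.23 for *Gad2* (edgeR adjusted p = 0.998).

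With those 2 controls left out, 7 of the 9 members were lower at an unadjusted p under 0.05, namely the 4 *Dlx* genes, *Sp9*, *Gad1* and *Gad2*, against 2.04% of 23841 genes. All exposed libraries lay below both remaining controls for 5 of the 9 (*Dlx1*, *Dlx5*, *Sp9*, *Gad1* and *Gad2*), against 5.64% of genes. No adjusted p of a member passed in this comparison either.

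**Figure D2:**
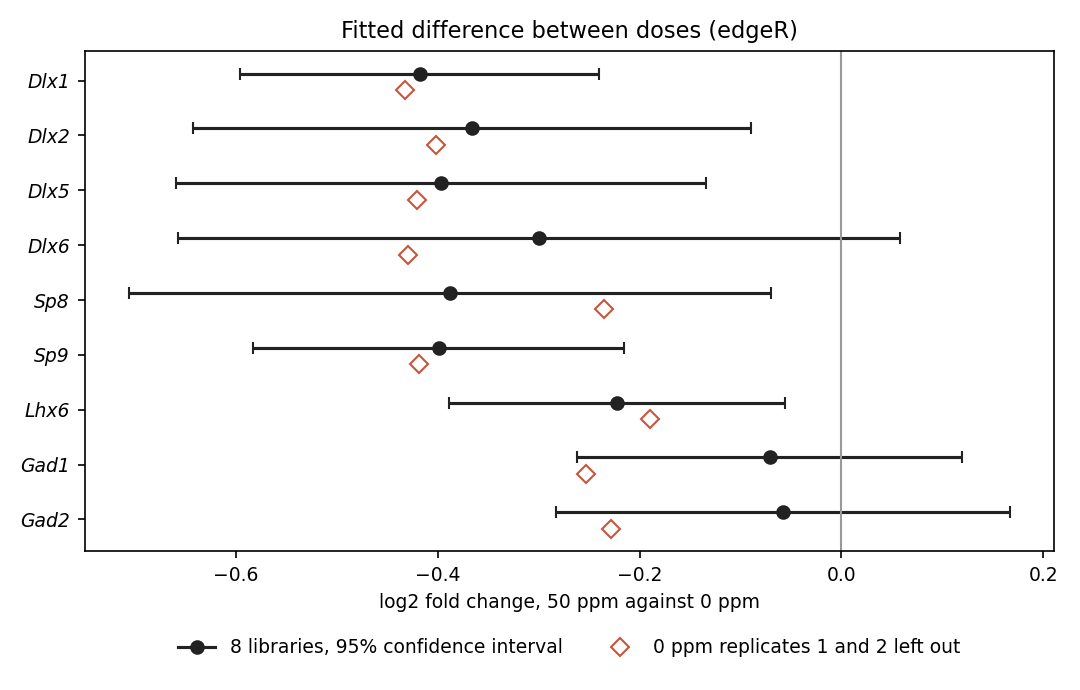
Fitted log2 fold change of each gene (horizontal axis, 50 ppm against 0 ppm), as a point with its 95% confidence interval for all 8 libraries and as an open diamond without 0 ppm replicates 1 and 2. The intervals of *Dlx6*, *Gad1* and *Gad2* include 0, and the diamonds of *Gad1* (−0.25) and *Gad2* (−0.23) lie well below their points.

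Exact two-sided permutation tests on each member alone, over the 70 ways to label the libraries, gave p = 0.0286 for *Dlx1*, *Dlx5* and *Sp9*, the smallest value that 4 against 4 allows. The exact p was 0.0571 for *Lhx6*, 0.0857 for *Dlx2*, 0.143 for *Sp8* and 0.229 for *Dlx6*. For *Gad1* and *Gad2* the exact p was 0.629 and 0.743. These p-values are not adjusted for the 9 members.

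Within the exposed group most of the regulators shared their lowest libraries, although their full order differed. Replicates 1 and 3 had the lowest levels of *Dlx1*, *Dlx2*, *Dlx5*, *Dlx6* and *Sp8*, at log2 values of −0.52 to −0.88 relative to the mean control, and replicates 2 and 4 lay between −0.27 and 0.12 for these 5 genes. *Sp9* ran from −0.31 to −0.58 over the 4 exposed brains, and the enzymes from −0.32 to 0.12. In *Lhx6*, replicates 1, 3 and 4 lay close together at −0.32, −0.29 and −0.28, and replicate 2 alone was near the controls at −0.03. Replicate 1 had the highest hindbrain and spinal cord score of all libraries (3.36), whereas replicate 3 had the lowest of the exposed ones (1.81). After each dose's own mean was subtracted, Pearson's r with the mean of the other members over the 8 libraries was 0.943 for *Dlx2*, 0.915 for *Sp9*, 0.874 for *Dlx6*, 0.817 for *Dlx5* and 0.81 for *Dlx1*. It was 0.654 for *Sp8*, 0.52 for *Gad2*, 0.452 for *Lhx6* and 0.45 for *Gad1*. Other genes reached such values too. Among 14593 other genes, the 10 closest to the mean of all members had r of 0.946 to 0.965. These 10 were picked as the highest, so they do not show how usual the members' values are. The libraries share depth and normalization across genes, and these values describe the 8 libraries only.

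**Figure D3:**
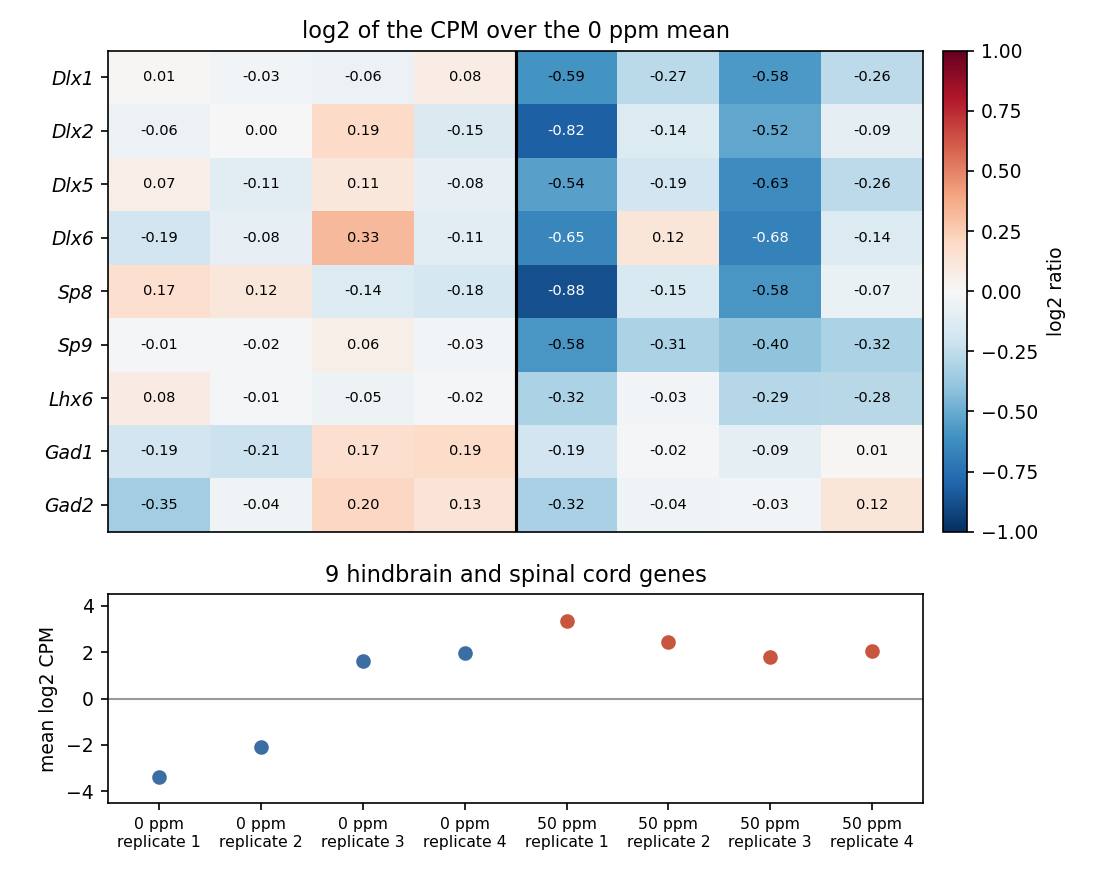
Upper panel, log2 of each gene's CPM over its mean in controls, by library (columns, 4 at 0 ppm and then 4 at 50 ppm), from blue (lower) to red (higher). Lower panel, mean log2 CPM of 9 hindbrain and spinal cord genes in the same libraries, which is below 0 in 0 ppm replicates 1 and 2 alone.

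Ratios within a library do not depend on its depth. They were used to ask whether partner genes differed alike between doses and whether *Dlx1* and *Sp9* differed from *Gad1*, with exact two-sided permutation tests on log2(CPM + 0.5) for 6 pairs. The log2 ratio of *Dlx1* to *Dlx2* was 1.46 ± 0.19 in controls and 1.42 ± 0.17 in exposed brains (exact p = 0.743). That of *Dlx5* to *Dlx6* was 0.14 ± 0.19 and 0.06 ± 0.18 (exact p = 0.571), and that of *Sp9* to *Sp8* 0.76 ± 0.19 and 0.77 ± 0.25 (exact p = 0.971). *Gad1* to *Gad2* gave 0.86 ± 0.14 and 0.85 ± 0.11 (exact p = 0.886). A difference in any of these 4 ratios was not detectable with 4 brains per dose. Without 0 ppm replicates 1 and 2 the differences were −0.03 for *Dlx1* to *Dlx2*, 0.02 for *Dlx5* to *Dlx6*, −0.16 for *Sp9* to *Sp8* and −0.02 for *Gad1* to *Gad2*, so that *Sp9* to *Sp8* moved from 0.01 to −0.16.

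The ratio of *Dlx1* to *Gad1* was lower in every exposed brain than in any control. Its log2 values were −1.16, −1.17, −1.58 and −1.47 in controls and −1.76, −1.61, −1.84 and −1.63 in exposed brains, a difference of −0.36 in the means (exact permutation p = 0.0286, Benjamini-Hochberg over the 6 pairs 0.0857). *Sp9* to *Gad1* gave −2.69, −2.67, −2.98 and −3.08 in controls and −3.24, −3.16, −3.17 and −3.19 in exposed brains, a difference of −0.33 (exact permutation p = 0.0286, adjusted 0.0857). The gap between the groups was small, and both ratios were highest in 0 ppm replicates 1 and 2. Without these libraries the differences were −0.18 and −0.16, about 2 times smaller. *Dlx1* and *Sp9* were chosen for these ratios with their fold changes known and the other 5 regulators were not set against *Gad1*, so both ratios are a description of these 2 genes.

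**Figure D4:**
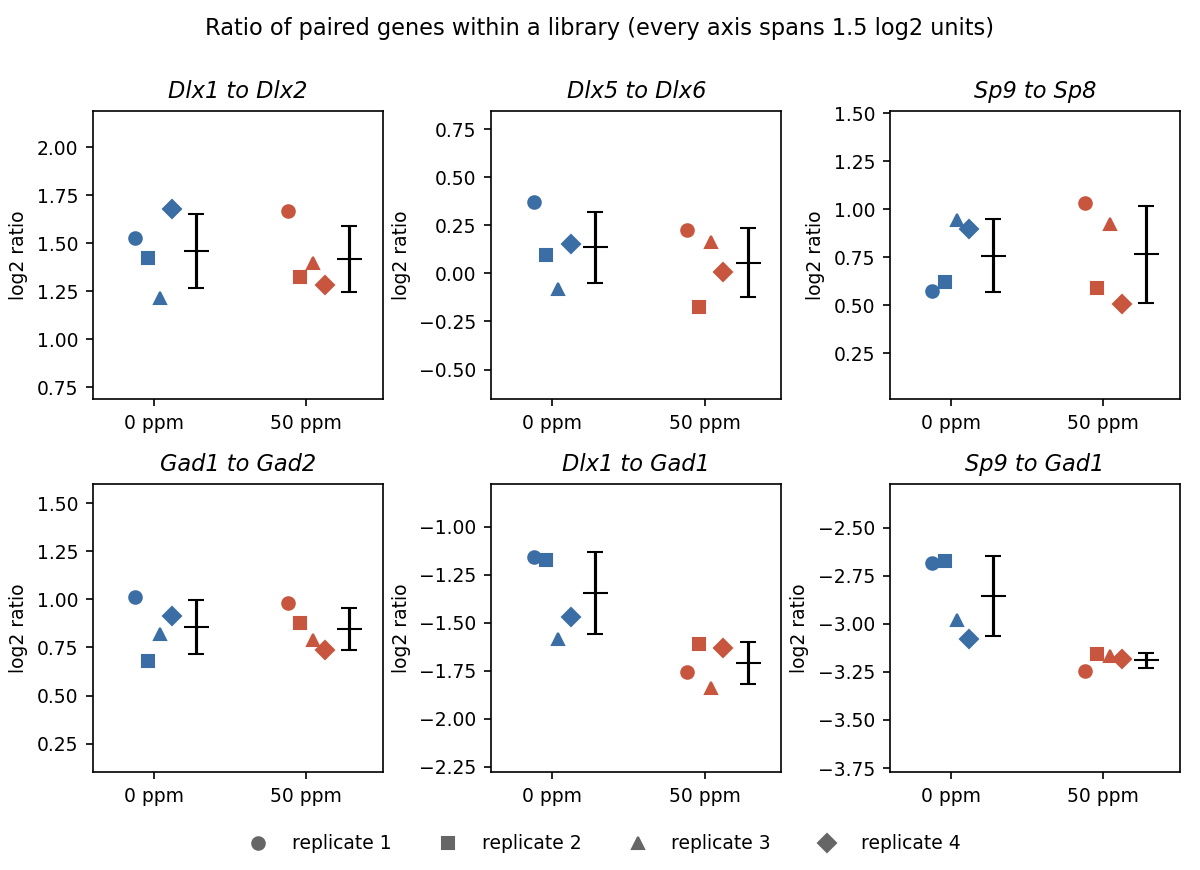
Log2 ratio of the CPM of 2 genes within each library (vertical axis, 1.5 log2 units in every panel) at 0 ppm (blue) and 50 ppm (red), with mean and SD in black. The groups are separate for *Dlx1* to *Gad1* and *Sp9* to *Gad1* and overlap for the 4 pairs of partners.

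The identifiers of *Dlx1*, *Dlx5* and *Sp9* could be paired with the alignment to the C genome. There the means were 100 ± 3.82 CPM in controls and 75.7 ± 9.51 in exposed brains for *Dlx1*, with a log2 fold change of −0.40 (edgeR adjusted p = 0.24). *Sp9* had 35.2 ± 0.923 and 26.8 ± 2.24 CPM and a log2 fold change of −0.39 (edgeR adjusted p = 0.278). For *Dlx5* it was −0.38 (edgeR adjusted p = 0.999). Both alignments use the same reads and so are not independent.

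Transcripts read from the other strand of the *Dlx* pairs also had lower means in exposed brains, but *Dlx1as* did not follow *Dlx1* by library. *Dlx1as*, antisense to *Dlx1*, had a log2 fold change of −0.30 (SE 0.14) and *Dlx6os1* (also known as Evf2), a long noncoding RNA of the *Dlx5* and *Dlx6* locus, one of −0.31 (SE 0.12), both with an unadjusted edgeR p under 0.05 and with overlapping groups. *Dlx1as* had 63.0, 40.9, 39.0 and 48.9 CPM in controls and 46.7, 43.9, 31.2 and 33.5 CPM in exposed brains. Exposed replicate 1 was thus its highest exposed library but the lowest for *Dlx1*. Without 0 ppm replicates 1 and 2 the log2 fold change was −0.18 for *Dlx1as*, where the unadjusted edgeR p was no longer under 0.05. For *Dlx6os1* it was −0.28, still with an unadjusted p under 0.05. Where the exons of *Dlx1* and *Dlx1as* overlap, their reads cannot be told apart without the strand setting. The relatives *Dlx3* and *Dlx4*, genes of craniofacial and skin development, were nearly silent in these brains, with at most 0.316 CPM on average in a group. Among the 28 tested protein-coding genes nearest to the members on both sides, 1 was lower at an unadjusted p under 0.05 and none was higher, and their median log2 fold change was 0.02. The 1 was *Gm26558*, at 0.248 CPM on average.

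The genes around the members in the same lineage were taken from lists. Of 8 progenitor regulators of the eminences, 1 was lower and 1 higher at an unadjusted p under 0.05, with a median log2 fold change of −0.24. The lower one was *Six3*, a regulator of ventral forebrain identity, at −0.41 (SE 0.16). The higher one was *Nkx6-2*, at 0.74 (SE 0.31) and a low level. *Nkx2-1*, which specifies the medial eminence, had −0.47 (SE 0.30) and did not pass.

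Of 15 further transcription factors of postmitotic interneurons, 2 were lower and 1 was higher, with a median of −0.07. Of the lower ones, *Prox1*, found in interneurons of the caudal eminence and in dentate granule cells, had −0.31 (SE 0.09). The higher one was *Maf*, a factor of medial eminence interneurons, at 0.24 (SE 0.10). *Sox6* (−0.06), *Satb1* (−0.07) and *Npas1* (−0.08), which also mark interneurons, did not pass. Without 0 ppm replicates 1 and 2, 4 of the 15 were lower and 2 higher. *Satb1* was then among the higher ones, at 0.26 (SE 0.09).

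With all 8 libraries, genes of the mature GABA phenotype did not pass in either direction. None of the 4 genes of GABA transport and breakdown had an unadjusted p under 0.05, with a median of 0.03. *Slc32a1*, the vesicular GABA transporter, had 65.6, 66.4, 91.0 and 85.7 CPM in controls and 75.4, 86.4, 71.0 and 75.9 CPM in exposed brains, with means of 77.1 ± 13.1 and 77.2 ± 6.57. Its lowest controls were 0 ppm replicates 1 and 2, and without them the log2 fold change was −0.20 (SE 0.09, edgeR adjusted p = 0.998), with an unadjusted p under 0.05. None of 11 subtype markers passed (median 0.00), among them *Sst* at −0.03, *Npy* at 0.22 and *Calb2* at −0.27, nor did any of 8 receptors of interneuron migration (median −0.07), such as *Cxcr4* at 0.02 and *Erbb4* at 0.09. *Sst*, the peptide somatostatin, had 62.8, 66.7, 80.8 and 88.2 CPM in controls and 75.8, 77.1, 65.3 and 74.0 CPM in exposed brains. The same controls were the lowest among the controls, and without them its log2 fold change was −0.21 (SE 0.09, edgeR adjusted p = 0.998), also with an unadjusted p under 0.05. In that alternative *Calb2* was lower (−0.47) and *Npy* higher (0.37) at the same threshold. *Pvalb* and *Vip*, whose products appear after birth, had 0.801 and 0.575 CPM in controls.

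Other neurons of the forebrain and GABA neurons elsewhere gave further reference points. Of 18 genes of striatal projection neurons, which also descend from *Dlx*-expressing cells, 3 were lower (*Bcl11b* −0.21, *Rarb* −0.30, *Drd1* −0.35) and 1 was higher (*Ebf1* 0.42), with a median of −0.12. Of 12 tested genes of pallial glutamatergic neurons, 2 were lower (*Eomes* −0.60, *Emx2* −0.29) and none was higher, with a median of −0.06. *Eomes* had 17.2, 35.8, 16.7 and 17.5 CPM in controls, so its value rested largely on 0 ppm replicate 2. Without 0 ppm replicates 1 and 2 it was −0.26, and the unadjusted edgeR p was no longer under 0.05. None of the 4 genes of olfactory bulb projection neurons passed, but their median was −0.42, with *Cdhr1* at −0.46 (SE 0.24) and summed levels of 23.0 to 49.4 CPM in controls and 20.5 to 38.9 CPM in exposed brains. The share of olfactory bulb in the dissected brains was not tested. Of 9 genes of GABA neurons in the midbrain, hindbrain and cerebellum, *Pax2* alone was higher (log2 fold change 1.25, SE 0.47), with a median of 0.13. *Pax2* had 0.273, 4.95, 5.52 and 6.97 CPM in controls and 19.9, 7.06, 7.35 and 7.54 CPM in exposed brains. Its size thus owed much to replicate 1 of each dose, and it was 0.75 (SE 0.30) without 0 ppm replicates 1 and 2.

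Several glial genes had higher values in exposed brains. Higher values at an unadjusted p under 0.05, which 2.31% of all genes had, were found for 6 of 11 oligodendrocyte lineage genes and 3 of 6 astrocyte genes. Their medians were 0.49 and 0.30. Summed levels were 360 to 421 CPM in controls and 391 to 495 CPM in exposed brains for the oligodendrocyte list, and 769 to 975 and 968 to 1177 CPM for the astrocyte list. None of the 4 tested pan-neuronal genes passed (median 0.01). The part of these cell types in the levels of the regulators was not tested.

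Several of these lists moved without 0 ppm replicates 1 and 2. Of all 23841 genes tested in that alternative, 486 were lower and 534 higher at an unadjusted p under 0.05. Of the 18 striatal projection neuron genes 7 were then lower and 1 higher, with a median of −0.15. Of the 12 pallial glutamatergic genes 1 was lower and 4 were higher, with a median of 0.17, among them *Neurod6* at 0.31 and *Slc17a7* at 0.35. The olfactory bulb genes had a median of −0.17, the oligodendrocyte genes 0.35 with 6 higher, and the astrocyte genes 0.27 with 4 higher. Of the progenitor regulators 2 were lower, *Nkx2-1* (−0.83) and *Six3* (−0.64), and of the further postmitotic factors 4 were lower and 2 higher.

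**Figure D5:**
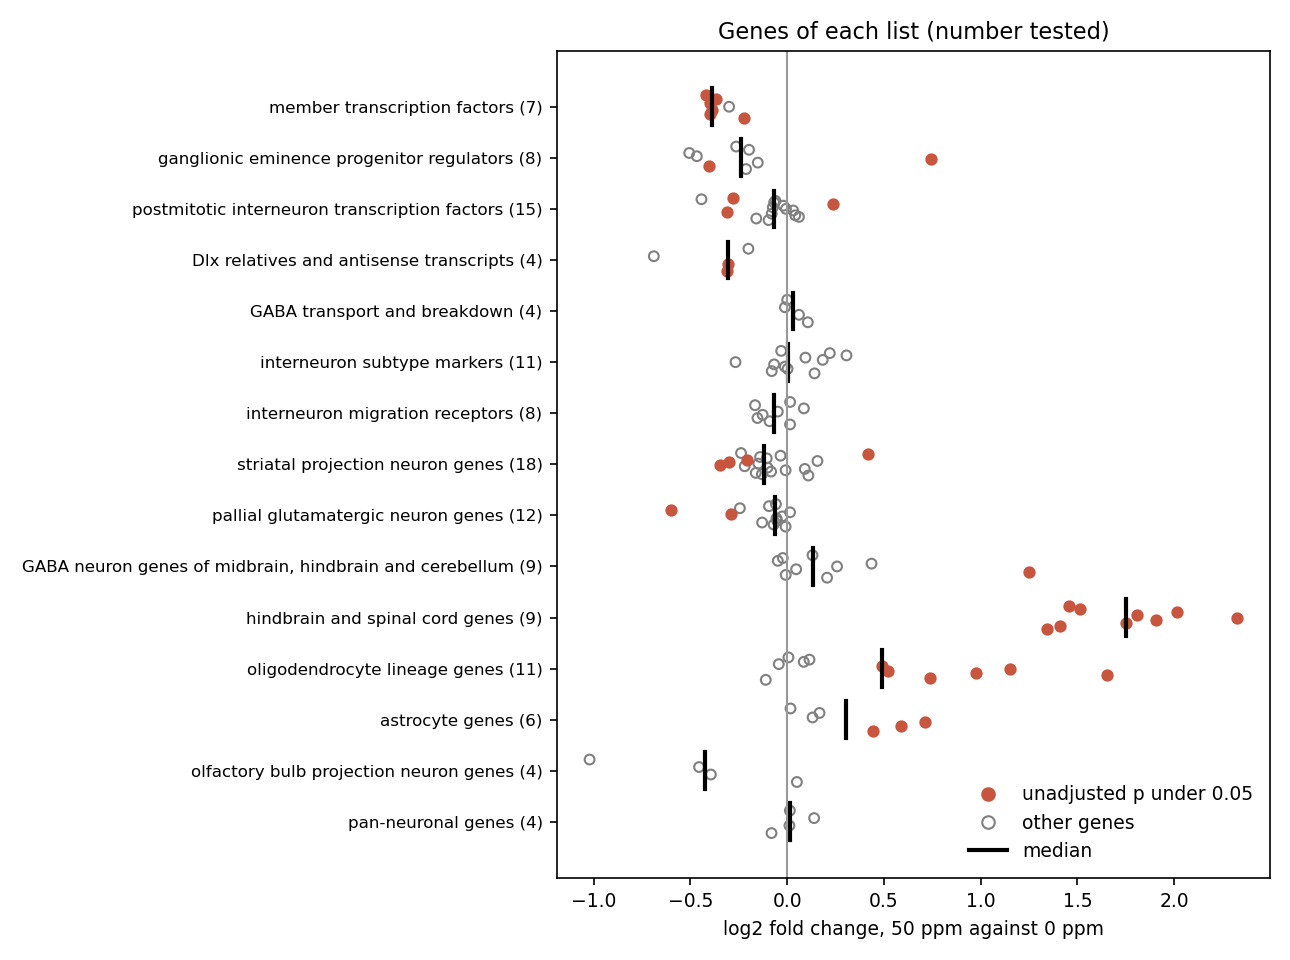
Log2 fold change (horizontal axis, 50 ppm against 0 ppm) of each tested gene of each list, filled where the unadjusted edgeR p is under 0.05, with the list's median as a bar. The 7 regulators lie between −0.42 and −0.22, and the widest spread to the right is that of the hindbrain and spinal cord genes (median 1.75).

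By likeness over the 8 libraries after each dose's own mean was subtracted, the genes closest to the mean of the members among 14593 genes were *Tril*, *Tox*, *Tomm70a*, *Tekt4*, *Tmeff2*, *Rab6a*, *Dnaic2*, *Slc6a4*, *Matr3* and *Gm12166*. Pearson's r was 0.965 for *Tril* and 0.946 for *Gm12166*, the first and last of the 10. Only 1 of them was also among the 10 closest without that subtraction, and with 8 libraries the order of such a list is loose.

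The sequence just before the start of a gene holds its promoter, and the letters TAATT, the core that many homeodomain proteins recognize, were looked for on both strands in the 250 bases before each start (RefSeq, GRCm38.p6). The table has 11 such windows for 7 of the members, and 4 of them hold the letters, as do 25% of all 32851 windows. *Dlx5* and *Dlx6* have no entry. The windows of *Dlx2* (chr2:71546755-71547004, − strand) and of the first start of *Sp8* (chr12:118846079-118846328, + strand) are shown, one without and one with the letters. They are examples from the 5 windows that overlap no annotated exon. Capitals mark TAATT or its reverse complement.
*Dlx2* window: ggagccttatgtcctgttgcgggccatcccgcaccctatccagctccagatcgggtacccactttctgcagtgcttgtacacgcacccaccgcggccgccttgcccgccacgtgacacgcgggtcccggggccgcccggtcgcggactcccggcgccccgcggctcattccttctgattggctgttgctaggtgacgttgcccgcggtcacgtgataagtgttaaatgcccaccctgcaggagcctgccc
*Sp8* window: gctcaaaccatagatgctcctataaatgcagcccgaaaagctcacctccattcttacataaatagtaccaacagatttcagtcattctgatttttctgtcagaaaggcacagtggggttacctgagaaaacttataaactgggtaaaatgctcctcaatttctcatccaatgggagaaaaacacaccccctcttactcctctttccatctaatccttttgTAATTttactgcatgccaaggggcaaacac
The *Dlx2* window holds no match and the *Sp8* window 1. A match is a run of letters, and binding was not measured here.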

How the data were processed

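Poly(A) RNA of 8 whole newborn brains, 4 per dose, was sequenced as 125-base single-end reads from strand-specific libraries. The authors cut 10 bases from the start of each read, used STAR to align them to the B genome (GRCm38, Ensembl) and separately to the C genome (CAST/EiJ), counted reads per gene with htseq-count and deposited these counts without normalization. Program versions and the strand setting of the count are not given in the sources used here. The authors tested with DESeq2.

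By the rule in the study's methods, a gene had to have counts in at least 1/3 of the libraries, which kept 23113 of 49585 genes for the B genome. The study reports fewer genes for this alignment after its quality control, so the sets of genes behind the adjusted p-values differ. Libraries were normalized by TMM and dose was tested with edgeR 4.0.16 (glmQLFit, glmQLFTest, R 4.3.3), with Benjamini-Hochberg adjustment over all genes tested. CPM used TMM-scaled library sizes. The SE is the absolute log2 fold change divided by the square root of F. The same code was run on simulated counts with 200 changed genes among 23113. It called 98% of genes changed 2-fold and 50% of those changed 1.33-fold, and 9.76% of its calls were false. Each gene was drawn independently there, without differences shared by the genes of a library, so these shares need not hold for the members. Exact permutation tests used log2(CPM + 0.5). p-values measure the spread between single pups of different litters.

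The members and the 14 lists (128 genes) were chosen with earlier results of these data known. All members are named, and of each list the genes with an unadjusted p under 0.05 and a few of the most abundant, except for some single genes that are not reported here. *Nkx2-1*, *Satb1*, *Npas1*, *Sst*, *Npy*, *Calb2*, *Pvalb*, *Vip*, *Cxcr4*, *Erbb4*, *Sox6*, *Slc32a1*, *Dlx3*, *Dlx4*, *Gm26558* and *Cdhr1* were added for their role after their values were seen. *Neurod1* and *Tubb3* are listed at 0 in every library, as are 22508 genes in all. Names came from the Ensembl gene tables and coordinates and exon lengths from GENCODE M21. Python 3.11.15 and matplotlib 3.10.9 were used for the plots. Alternatives were DESeq2 1.42.0, its size factors in edgeR, other filters, a robust fit, limma-voom (limma 3.58.1) with quality weights, the C genome, the hindbrain and spinal cord score as a covariate, other pseudocounts, and each library left out.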

Additional observations from a re-analysis of the deposited data

Results flagged for a closer look

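The *Lhx6* level at 50 ppm was marked for a closer look because 1 of its 4 libraries stood far from the others. Exposed replicate 2 had 59.2 CPM, against 48.6, 49.6 and 49.8 CPM in the other 3. The gap to its nearest neighbour made up 0.879 of the whole range, above Dixon's 95% critical value for 4 samples. This was 1 of 30 groups of 4 values examined, and chance marks about 1 in 20 such groups. In the same library *Dlx6* (12.8 CPM) was the highest of the exposed brains.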

How the results depend on the processing

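Of 147 alternative fits of single members, 142 kept direction and side of the adjusted threshold. No member passed that threshold in the main test, so this count says little about the size of a difference. All 115 fits of the regulators were negative. Their sizes moved with single libraries: *Dlx6*, −0.30 in the main test, was −0.17 without 0 ppm replicate 3, −0.19 without 50 ppm replicate 1 or 3 and −0.47 without 50 ppm replicate 2, *Dlx2* was −0.24 and *Sp8* −0.25 without 50 ppm replicate 1, and *Gad1* ran from −0.14 without 0 ppm replicate 2 to −0.0031 without 0 ppm replicate 4. With the hindbrain and spinal cord score as a covariate, *Sp8* was −0.16 and *Gad1* −0.26. *Gad2* changed sign without 0 ppm replicate 3 or 50 ppm replicate 1, in a range of −0.158 to 0.0235 over the fits that left out a library. Members with an adjusted p under 0.05 numbered 0 in the main test, 2 with DESeq2 (*Dlx1* and *Sp9*) and 1 without a filter on low counts (*Dlx1*, edgeR adjusted p = 0.00898, where 0.192% of 27077 genes passed). Members lower at an unadjusted p under 0.05 numbered 6 in the main test, 4 without 50 ppm replicate 1, 5 without 0 ppm replicate 1, 0 ppm replicate 2 or 50 ppm replicate 3, 5 with that covariate, and 7 without 50 ppm replicate 2 or without 0 ppm replicates 1 and 2 together. In every one of 17 alternatives each, *Dlx1*, *Dlx5* and *Sp9* had an unadjusted p under 0.05, against 10 of 16 for *Sp8*. Over all genes, 4 passed in the main test, 18 with DESeq2, 52 without a filter, 2 with a minimum of 10 counts in 4 libraries, 1 with limma-voom, 1 with the hindbrain and spinal cord score as a covariate, 2 with the C genome, 7 without 0 ppm replicates 1 and 2 together, and 2 to 20 when single libraries were left out (20 without 0 ppm replicate 3, 8 without 50 ppm replicate 3, and 2 without 0 ppm replicate 1, 0 ppm replicate 2 or 50 ppm replicate 4). The cause of these differences was not tested.

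When single libraries were left out, the difference in log2 ratio ranged from −0.125 to 0.0299 for *Dlx1* to *Dlx2*, from −0.0845 to 0.0912 for *Sp9* to *Sp8*, from −0.0682 to 0.0424 for *Gad1* to *Gad2*, from −0.44 to −0.30 for *Dlx1* to *Gad1* and from −0.41 to −0.27 for *Sp9* to *Gad1*. The last 2 had an exact permutation p of 0.0571 whenever an exposed library was left out. With a pseudocount of 1 CPM the difference for *Sp9* to *Sp8* was −0.00027, and without 0 ppm replicates 1 and 2 the differences were −0.03 for *Dlx1* to *Dlx2*, 0.02 for *Dlx5* to *Dlx6*, −0.16 for *Sp9* to *Sp8* and −0.02 for *Gad1* to *Gad2*. No paired analysis was possible because the labels number no replicates and each pup came from its own litter.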
